A study of Caenorhabditis elegans with 2 samples.

Results

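The cytosolic chaperone genes of *Caenorhabditis elegans* were taken as the protein-coding genes of the WBcel235 annotation whose names begin with hsp-, dnj-, cct- or pfd-, together with the co-chaperone genes sti-1 and cdc-37. The genes hsp-3, hsp-4, hsp-6, hsp-60 and dnj-10, whose products work in the endoplasmic reticulum or in mitochondria, were left out by name. This gave 62 of 19973 protein-coding genes, which comprised 5 HSP70 and HSP90 genes, 13 small HSP genes, 28 J-domain genes, 8 CCT genes, 6 prefoldin genes and the pair of co-chaperones. The choice rests on names and not on where the proteins work. It therefore keeps hsp-75, an HSP90-type gene of mitochondria, and several J-domain genes of the endoplasmic reticulum or mitochondria, such as dnj-7, dnj-20, dnj-27, dnj-29 and dnj-21. Chromatin immunoprecipitation and sequencing gave the binding of DVE-1, a homeodomain protein best known for its role in the response to mitochondrial stress. The material was whole L4 larvae, all hermaphrodites, of strain OP398, whose genotype is unc-119(tm4063) III; wgIs398. The wgIs398 transgene encodes a DVE-1 fusion that carries GFP and FLAG at its C-terminus, and antibodies to GFP recovered the chromatin. There was 1 group with 2 biological replicates and no second genotype, treatment or stage, so all comparisons are between genes or between replicates. The labels do not name the promoter that drives the transgene and give the age as unknown. In whole animals, binding in fewer cells and weaker binding in every cell cannot be told apart.

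Molecular chaperones hold or refold other proteins. HSP70 proteins bind unfolded stretches in cycles of ATP hydrolysis that J-domain proteins start and nucleotide exchange factors such as HSP110 end, while HSP90 takes later folding steps from HSP70 through adaptors such as the HOP protein STI-1. Small HSPs hold unfolded proteins without ATP, and the CCT chaperonin folds actin and tubulin, which prefoldin hands to it. Many of these genes are induced on heat shock by HSF-1, a transcription factor that binds inverted repeats of the unit GAA, called heat shock elements.

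The sequences around the binding summits of the strongest peaks of each class show what the peaks at chaperone genes contain. Each spans 75 bp on either side of the summit, was read from the WBcel235 genome (ce11) and is printed 5' to 3' on the strand of the named gene. Capitals mark every match on either strand to a paired heat shock element (GAANNTTC or TTCNNGAA), to the GATA site TGATAA, or to the pentamer GAGAC. The first 7 are from HSP70 and HSP90, co-chaperone, J-domain and CCT genes, and each holds at least 1 paired heat shock element.
hsp-90, chrV:14685702-14685852, plus strand: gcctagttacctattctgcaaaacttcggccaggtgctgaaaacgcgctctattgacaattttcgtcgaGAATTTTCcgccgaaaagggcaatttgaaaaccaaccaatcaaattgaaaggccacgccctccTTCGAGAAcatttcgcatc
hsp-110, chrIII:8447095-8447245, minus strand: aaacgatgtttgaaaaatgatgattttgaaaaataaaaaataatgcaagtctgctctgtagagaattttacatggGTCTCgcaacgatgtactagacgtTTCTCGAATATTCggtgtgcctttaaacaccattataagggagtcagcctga
hsp-1, chrIV:17278514-17278664, plus strand: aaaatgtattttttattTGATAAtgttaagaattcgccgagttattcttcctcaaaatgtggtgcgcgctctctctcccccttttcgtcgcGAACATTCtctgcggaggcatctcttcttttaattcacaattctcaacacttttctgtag
sti-1, chrV:773361-773511, plus strand: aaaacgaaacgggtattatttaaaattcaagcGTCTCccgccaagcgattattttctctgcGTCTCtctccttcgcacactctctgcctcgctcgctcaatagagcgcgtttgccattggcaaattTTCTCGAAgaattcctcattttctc
dnj-13, chrII:11545392-11545542, plus strand: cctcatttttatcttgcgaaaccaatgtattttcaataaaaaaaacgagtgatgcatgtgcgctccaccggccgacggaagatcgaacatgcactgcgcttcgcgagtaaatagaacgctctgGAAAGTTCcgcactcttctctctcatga
cct-8, chrIV:1094274-1094424, minus strand: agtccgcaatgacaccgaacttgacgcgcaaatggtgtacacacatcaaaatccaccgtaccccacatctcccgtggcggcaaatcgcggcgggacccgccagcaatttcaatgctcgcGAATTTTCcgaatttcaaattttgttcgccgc
cct-1, chrII:8185124-8185274, plus strand: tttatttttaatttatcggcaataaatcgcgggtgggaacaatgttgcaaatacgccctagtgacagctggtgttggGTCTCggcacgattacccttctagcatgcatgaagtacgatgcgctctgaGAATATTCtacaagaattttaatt
The next 3 sequences are the strongest small HSP peak, the strongest J-domain peak and the strongest prefoldin peak, none of which holds a paired heat shock element within this distance of its summit. The hsp-16.2 peak is wider than its printed window. The 220 bp between hsp-16.2 and hsp-16.41, all inside that peak, hold 3 matches to the paired element. The dnj-9 sequence has no match to any of the motifs and so no capitals.
hsp-16.2, chrV:1805022-1805172, minus strand: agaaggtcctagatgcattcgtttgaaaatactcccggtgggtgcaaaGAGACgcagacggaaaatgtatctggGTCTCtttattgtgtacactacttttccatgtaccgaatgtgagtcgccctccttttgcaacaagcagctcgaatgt
dnj-9, chrII:4851760-4851910, plus strand: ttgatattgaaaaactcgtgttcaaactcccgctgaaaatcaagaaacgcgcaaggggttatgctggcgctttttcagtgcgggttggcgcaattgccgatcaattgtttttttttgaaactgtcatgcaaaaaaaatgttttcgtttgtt
pfd-1, chrIV:11149715-11149865, plus strand: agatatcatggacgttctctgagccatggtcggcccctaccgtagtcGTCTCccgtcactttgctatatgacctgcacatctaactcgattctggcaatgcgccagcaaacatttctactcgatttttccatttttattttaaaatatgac

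Most HSP70, HSP90 and CCT genes had a DVE-1 peak near a 5' end, while most small HSP genes had none. A gene was counted as marked when the summit of an optimal peak lay between 1000 bp upstream and 200 bp downstream of any of its annotated 5' ends. The optimal list is the authors' list of 7262 peaks that passed their threshold for reproducibility. By this measure 31 of the 62 chaperone genes were marked, or 50% with a 95% exact binomial interval of 37 to 63%, against 21.7% of all protein-coding genes. The marked genes were 4 of 5 HSP70 and HSP90 genes (28.4 to 99.5%), 7 of 8 CCT genes (47.3 to 99.7%), 4 of 6 prefoldin genes (22.3 to 95.7%), 13 of 28 J-domain genes (27.5 to 66.1%), 1 of the pair of co-chaperones and 2 of 13 small HSP genes (1.92 to 45.4%). The intervals of the small HSP genes and of the co-chaperones include the share of all protein-coding genes, and those of the other classes lie above it, for the prefoldin genes by less than 1 percentage point. This order of the classes depends on how, and from how far, summits are given to genes. With each summit given only to its nearest 5' end within 2000 bp, the counts were 2 of 5 HSP70 and HSP90 genes, 3 of 8 CCT genes, 2 of 6 prefoldin genes, 10 of 28 J-domain genes and 5 of 13 small HSP genes. Their shares then lay between 33.3 and 40%, and the contrast between the small HSP genes and the other classes was gone. Besides the choice of gene, this assignment changed the reach to 2000 bp on either side of a 5' end. The parts of these changes were not tested separately. Intervals treat genes as independent, although a peak between neighbouring genes can mark both, and they are given as descriptions with no test, because the classes were chosen with results of these data known.

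**Figure D1:**
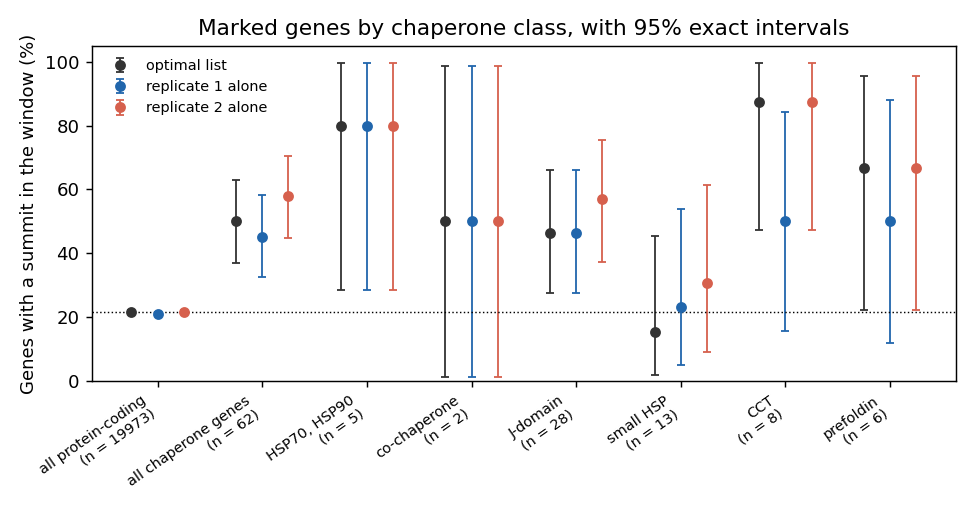
Share of genes (vertical axis, percent) with a summit in the promoter window for all protein-coding genes, for all 62 chaperone genes and for each class, using the optimal list or the 7262 strongest regions of each replicate. Points are shares, bars are 95% exact binomial intervals, and the dotted line is the 21.7% of all protein-coding genes; the HSP70 and HSP90 share is the same in each list, and the CCT share is 87.5% in the optimal list and in replicate 2 and 50% in replicate 1.

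Each replicate alone also had a higher share of chaperone genes than of all genes, but the classes stood apart less clearly in replicate 1. For each replicate, its 7262 strongest regions were taken, as many as the optimal list holds. Replicate 1 had such a region in the window of 28 chaperone genes (45.2%, against 21.0% of all protein-coding genes), and replicate 2 in that of 36 (58.1%, against 21.7%). Both replicates had one at 28 chaperone genes, or 45.2% against 17.7% of all genes. Of the 31 marked chaperone genes, 26 had one in both replicates, and of all marked protein-coding genes 80.5% did. The other 5, cct-2, cct-4, cct-5, dnj-5 and pfd-5, had one in replicate 2 only, and none had one in replicate 1 only. The CCT genes thus numbered 7 in replicate 2 and 4 in replicate 1. In replicate 1 the intervals of the CCT genes (15.7 to 84.3%) and prefoldin genes (3 of 6, 11.8 to 88.2%) included the 21.0% of all genes. Small HSP genes numbered 3 of 13 (23.1%) in replicate 1 and 4 of 13 (30.8%) in replicate 2, with intervals that included the share of all genes. The pooled list of both replicates, with 30000 regions that include background, had a region at 42 chaperone genes (67.7%, against 38.7% of all genes).

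The strength of a peak is given here as the signal value that the authors' peak caller assigned against a control. The signal has its own scale in each list, so replicate values are given relative to the median of the optimal peaks in that replicate, which makes 1 an average optimal peak. Over the strongest peak of each marked chaperone gene, the pooled signal had a median of 82.9 and ranged from 38.5 to 287, against a median of 71.4 over all marked protein-coding genes. The median was 231 for the 4 HSP70 and HSP90 genes, 106 for the 7 CCT genes, 82.9 for the 13 J-domain genes, 82.3 for the single peak of the small HSP genes and 77.0 for the 4 prefoldin genes. Chaperone genes were spread over the whole list, with 8 (12.9% of the 62) among the 200 strongest peaks and 12 (19.4%) among the 1000 strongest, and the lowest at rank 6625 of 7262. Over all protein-coding genes, the windows of 184 (0.921%) held one of the 200 strongest peaks and those of 752 (3.77%) held one of the 1000 strongest.

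**Figure D2:**
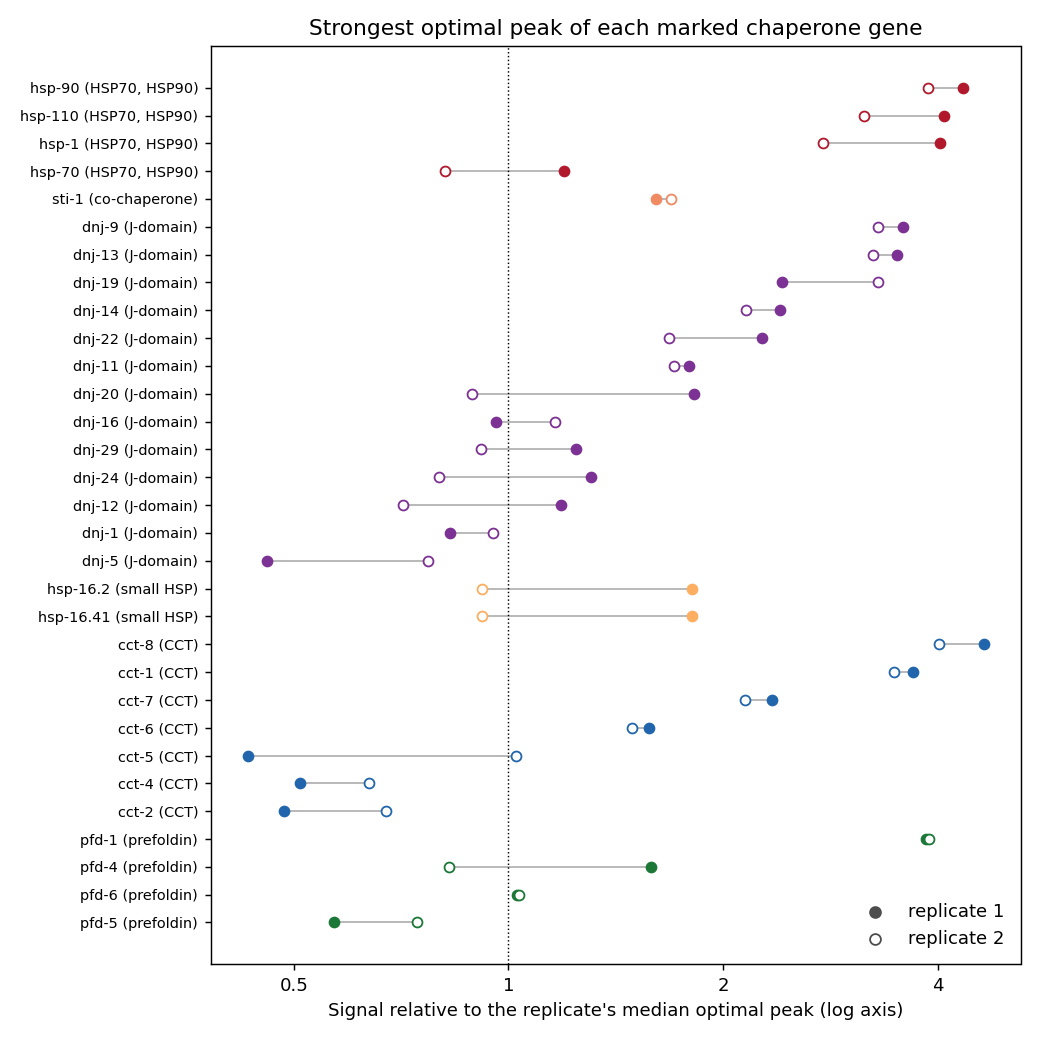
Signal of the strongest optimal peak of each of the 31 marked chaperone genes, on a log axis, relative to the median optimal peak of the same replicate (dotted line at 1). Filled circles are replicate 1, open circles replicate 2, lines join both and colours are the classes; 9 genes from cct-8 to dnj-19 lie above 2.4 in both replicates, and the 3 lowest CCT genes lie below the line in replicate 1.

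Among the HSP70 and HSP90 genes, hsp-90, hsp-110 and hsp-1 had strong peaks and the heat-inducible hsp-70 had an average one. At hsp-90, the cytosolic HSP90, the signal was 4.34 in replicate 1 and 3.88 in replicate 2, or 4.11 ± 0.326 (SD, n = 2), from a peak at chrV:14685638-14685896 with rank 80. This peak lies in an intron of the longer hsp-90 transcript, 859 bp downstream of its first 5' end and 383 bp upstream of an internal one, and also 292 bp upstream of C47E8.4. When only the most upstream 5' end of each gene was used, hsp-90 was therefore not marked. At hsp-110, an HSP110-type nucleotide exchange factor, the values were 4.08 and 3.15 (3.62 ± 0.662, rank 131), 261 bp upstream of the gene and 183 bp upstream of the divergent proteasome gene rpn-3. At hsp-1, the constitutive HSC70, the values were 4.03 and 2.76 (3.40 ± 0.899, rank 180) at a summit 370 bp upstream that lay in no other gene's window. All 3 of these genes were above 2.7 in both replicates, so both replicates put them well above the average peak. At hsp-70 the values were 1.197 and 0.815, on either side of the average, with a mean of 1.01 ± 0.270 and rank 3940. That summit lay 107 bp upstream of hsp-70, in an intron of uggt-2. The mitochondrial HSP90-type gene hsp-75 had no region in any of the lists, and its 5' end lies 99 bp from a gene on the same strand.

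The co-chaperones differed from each other. At sti-1, which links HSP70 to HSP90, the values were 1.61 in replicate 1 and 1.69 in replicate 2 (1.65 ± 0.0574, SD, n = 2), so the replicates lay close together, and the summit was 82 bp upstream of the gene and in no other window. The kinase adaptor gene cdc-37 had no pooled region, and its only region was at rank 20297 of replicate 1.

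The CCT genes encode subunits of 1 complex, and their peaks spanned almost the whole range of strength. The strongest peak of all chaperone genes was that of cct-8, at chrIV:1094224-1094491 with rank 63, where the signal was 4.64 in replicate 1 and 4.01 in replicate 2 (4.32 ± 0.444, SD, n = 2). The values were 3.70 and 3.47 at cct-1 (rank 133), 2.34 and 2.15 at cct-7 (rank 703) and 1.57 and 1.49 at cct-6 (rank 1553). Each of these 4 genes was above 1.4 in both replicates, and their order was the same in both. The other 3 were below 0.7 in replicate 1 and were not among its strongest regions. The values were 0.431 and 1.03 at cct-5 (rank 4748), 0.510 and 0.637 at cct-4 (rank 6289), and 0.485 and 0.673 at cct-2 (rank 6625). At cct-4 and cct-2 the replicates overlapped in range, so their order is not resolved. The remaining subunit gene, cct-3, had only a region of rank 29443 with a pooled signal of 5.42, below the lowest optimal signal of 34.7. Within the complex, mean signal thus ran from 0.573 ± 0.0899 at cct-4 to 4.32 ± 0.444 at cct-8.

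All 8 CCT genes are transcribed away from their upstream neighbour. The upstream neighbour was on the opposite strand for 39 of the 62 chaperone genes (62.9%), 46.2% of all protein-coding genes and 55.8% of all marked ones. These shares include genes that overlap the neighbour, such as hsp-70 with uggt-2 and dnj-13 with dhgd-1. The CCT summits lay 214 to 465 bp upstream of the CCT gene, and each of the 7 lay in the window of 1 further gene. That gene was the divergent neighbour in each case. Its 5' end was at most 276 bp from the summit at 6 of the 7, as with mig-5 at cct-1 (176 bp) and alh-9 at cct-6 (41 bp), and 920 bp from it at cct-2. For cct-1, cct-5, cct-6, cct-7 and cct-8 the summit was nearer to the neighbour than to the CCT gene. Peaks cannot be given to 1 gene of such a pair from these lists.

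Of the 4 marked prefoldin genes, pfd-1 had one of the strongest peaks and the others had average or weaker ones. At pfd-1 the signal was 3.85 in replicate 1 and 3.88 in replicate 2 (3.86 ± 0.0257, SD, n = 2, rank 100), with the replicates nearly equal, and the summit lay 323 bp upstream of pfd-1 and 286 bp upstream of the divergent F01G4.6. A second, weaker pfd-1 peak of rank 6116 lay 900 bp upstream, inside F01G4.6. At pfd-6 the values were 1.03 in both replicates (rank 2826). At pfd-4 they were 1.59 and 0.825 (rank 2683), at a summit that was nearer to B0035.3. At pfd-5 the stronger of its peaks had 0.569 and 0.743 (rank 5627), and a second peak 773 bp upstream had 0.403 and 0.881 (rank 6030). Both pfd-5 peaks were below average in both replicates. No region of the pooled list or of either replicate lay at pfd-2 or pfd-3.

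The J-domain genes, too, ranged from strong peaks to none. The strongest were dnj-9, with 3.57 in replicate 1 and 3.30 in replicate 2 (3.43 ± 0.191, SD, n = 2, rank 159), and dnj-13, with 3.51 and 3.25 (3.38 ± 0.186, rank 171). DNJ-13 is a DNAJB1-type partner of HSP70, and its summit lay 234 bp upstream, in an intron of dhgd-1. The values of dnj-9 and dnj-13 overlap between replicates, so they are not separable. At dnj-19, a DNAJA-type gene, replicate 2 was the higher with 3.30 against 2.42 (rank 276), and the summit lay 385 bp upstream of dnj-19 but 11 bp upstream of nhr-47. At dnj-14, which encodes the cysteine string protein of synaptic vesicles, the values were 2.40 and 2.15 (rank 605). They were 2.27 and 1.68 at dnj-22 (rank 952), and 1.79 and 1.71 at dnj-11, a zuotin-type gene of the ribosome-bound chaperones (rank 1209). All 6 of these J-domain genes were above 1.6 in both replicates.

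The other 7 marked J-domain genes had average to weak peaks. At dnj-20, which encodes a J-domain protein of the endoplasmic reticulum, the signal was 1.82 in replicate 1 and 0.888 in replicate 2, and the summit lay in an intron of dnj-20 itself, before an internal 5' end. The mean signal was 1.08 ± 0.232 (SD, n = 2) at dnj-29, the SEC63-type gene of protein import into the endoplasmic reticulum, 1.06 ± 0.144 at dnj-16 and 1.05 ± 0.36 at dnj-24. It was 0.948 ± 0.336 at dnj-12, a DNAJA-type gene, 0.889 ± 0.0882 at dnj-1 and 0.615 ± 0.222 at dnj-5. The means from dnj-1 to dnj-29 thus lay within the SD of dnj-24 and of dnj-12, and these genes cannot be ranked. At dnj-5 the value in replicate 1, 0.458, was too low to be among that replicate's strongest regions. The stronger dnj-24 summit lay in an intron of dnj-24, 918 bp upstream of an internal 5' end. A second peak of dnj-24, 482 bp upstream of its first 5' end, had rank 6600, with 0.678 in replicate 1 and 0.495 in replicate 2. The dnj-16 summit also lay in an intron of its own gene, 84 bp upstream of an internal 5' end. With only the most upstream 5' end of each gene, dnj-16 and dnj-20 were not marked.

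Among the 15 unmarked J-domain genes, 8 had a pooled region below the optimal threshold. The nearest was dnj-28, at rank 7275 with a pooled signal of 34.7, and each replicate had one of its strongest regions in the dnj-28 window, at ranks 6203 and 6268. Its pooled signal, 34.65 before rounding, was just below the lowest optimal signal of 34.73. The pooled summit lay 112 bp upstream of dnj-28, the replicate 1 summit 102 bp and the replicate 2 summit 324 bp. Whether this distance between the replicate summits plays a part was not tested. The next were dnj-25, encoding the auxilin of clathrin uncoating (rank 7396), dnj-8 (rank 8112) and dnj-23 (rank 8136). Just inside the threshold lay cct-2 and cct-4, with pooled signals of 38.5 and 40.6, and the second peak of dnj-24 with 38.6. The lower ones were dnj-4, dnj-21 (the TIM14-type gene of mitochondrial import), dnj-18 and dnj-3, at ranks 14136 to 26256. The other 7, dnj-2, dnj-7, dnj-15, dnj-17, dnj-26, dnj-27 and dnj-30, had no pooled region. Of these, dnj-7, dnj-2 and dnj-30 had a region in replicate 2 alone, of average strength at dnj-7 (1.03, rank 3494) and near the end of the list at dnj-2 (rank 27608) and dnj-30 (rank 26813).

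Of the small HSP genes 2 were marked, and they shared a single peak. The divergent pair hsp-16.2 and hsp-16.41 had a peak at chrV:1804915-1805278, with a summit 140 bp upstream of hsp-16.2 and 81 bp upstream of hsp-16.41. Its signal was 1.81 in replicate 1 and 0.917 in replicate 2 (1.36 ± 0.631, SD, n = 2, rank 2471), above the average peak in one replicate and below it in the other. The HSP16 proteins are the heat-inducible small HSPs, and the animals were not labelled as heat shocked. The other 11 genes were unmarked. Among them hsp-25 (rank 8327) and hsp-43 (rank 11885) had weaker pooled regions. At hsp-17 each replicate listed a region among its strongest, with 0.748 at rank 5404 and 0.659 at rank 6126 and summits 420 and 415 bp upstream, but the pooled list had none there. This was uncommon, since of 5190 replicate 1 regions matched within 100 bp in replicate 2, 66 (1.27%) lacked a pooled region within 100 bp. The genes hsp-12.1, hsp-12.2, hsp-12.3 and hsp-12.6 had no region in the window in any list. When each summit was given to its nearest 5' end within 2000 bp, hsp-12.2, hsp-12.3, hsp-16.1 and hsp-25 were marked as well and hsp-16.2 was not, so that 5 small HSP genes were marked.

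The other 4 hsp-16 genes could not be assessed in the same way. The segment from hsp-16.1 to hsp-16.48 and the segment from hsp-16.49 to hsp-16.11 are identical inverted copies of 1325 bp, 662 bp apart, at chrV:9087293-9090604. No region of any list lay in the windows of these 4 genes, and no optimal peak lay within 1000 bp of the locus. Outside the windows but within that distance, the pooled list had 1 summit, replicate 1 had 1 and replicate 2 had 2, and the nearest-end assignment marked hsp-16.1 from an optimal summit farther away. A read from either copy would match both, and the sources used here do not say whether such reads were kept. Their part in the result was not tested. Without these 4 genes, a choice made after their values were seen, the marked small HSP genes were 2 of 9.

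**Figure D3:**
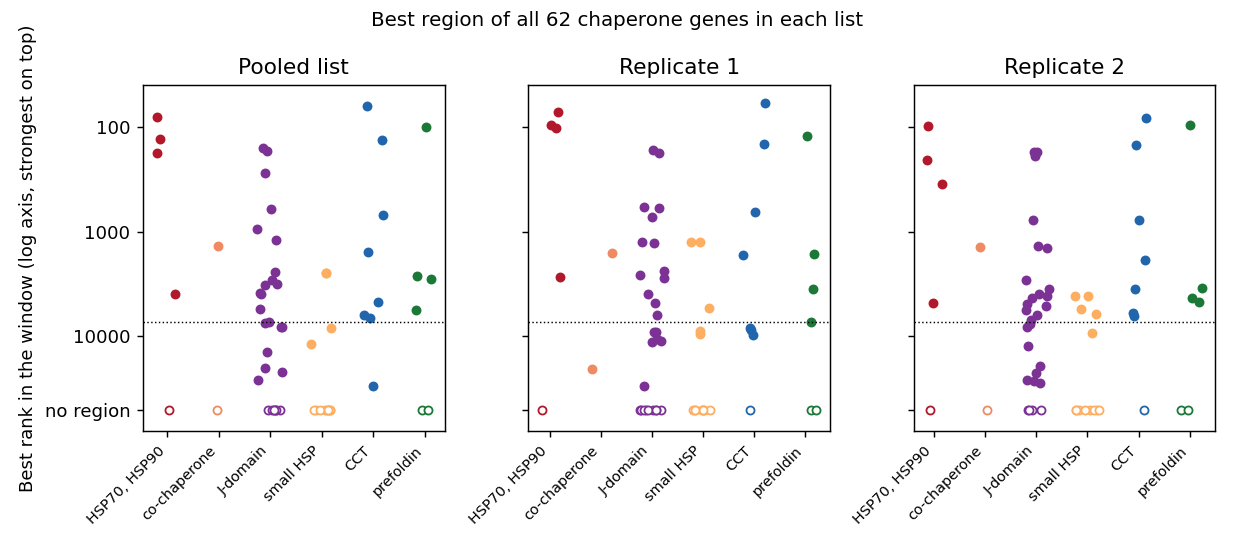
Best rank of a region in the promoter window for each of the 62 chaperone genes, by class, in the pooled list and in each replicate, on a log axis with the strongest on top. Filled points are genes with a region, open points at the bottom are genes with none, the dotted line is rank 7262 and points are spread sideways for visibility; the pooled list has no region for 20 genes, of which 9 are small HSP genes.

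Both replicates ranked the chaperone peaks in much the same order. The 33 optimal peaks in the windows of chaperone genes were all found in both replicates within 100 bp, as were 6828 of all 7262 peaks. Across the 33 peaks, Spearman's rho between the replicates was 0.846 and Pearson's r on log2 values was 0.869, against 0.706 and 0.694 across the 6828 peaks. These are correlations across peaks of the same pair of libraries, which share 1 control, and peaks are not replicates. The SD of the log2 ratio between replicate 1 and replicate 2 was 0.55 at chaperone peaks and 0.66 at all peaks, and 24.2% of peaks in either set lay beyond 0.66. The chaperone peaks beyond it were 5 that were higher in replicate 1 and 3 that were higher in replicate 2. The ratios past 1 in either direction were 1.03 at dnj-20, -1.25 at cct-5 and -1.13 at the second pfd-5 peak. The 8 strongest chaperone peaks all had a log2 ratio between -0.01 and 0.55.

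**Figure D4:**
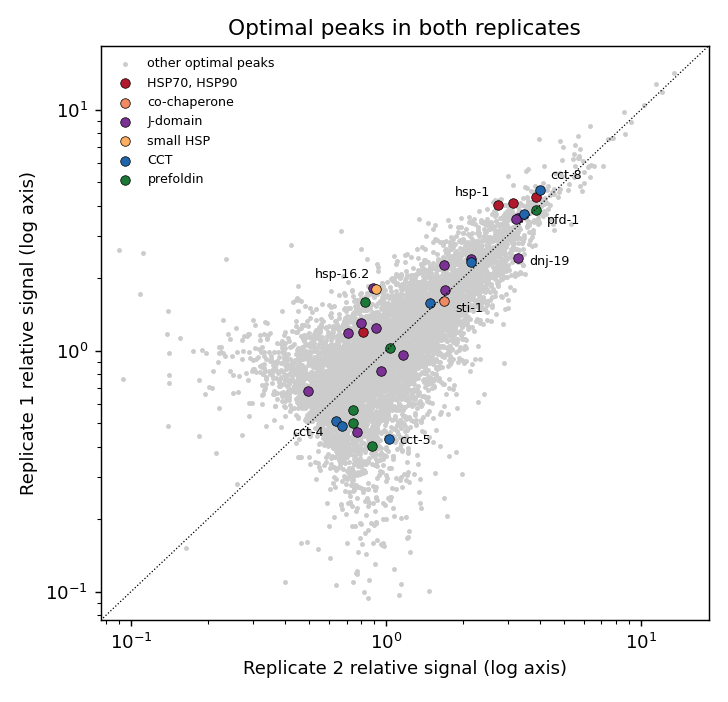
Signal of each optimal peak in replicate 1 (vertical) against replicate 2 (horizontal), both relative to the replicate's median optimal peak, on log axes. Grey points are other optimal peaks found in both replicates, coloured points are the 33 chaperone peaks by class, and the dotted line marks equal values; the strongest chaperone peaks lie close to the line, while hsp-16.2 lies above it and cct-5 below it.

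Heat shock elements were common at the summits of the chaperone peaks, as the sequences of hsp-90, hsp-110, hsp-1, sti-1, dnj-13, cct-8 and cct-1 printed above show. A paired element lay within 75 bp of the summit at 17 of the 33 chaperone peaks (51.5%, 95% exact interval 33.5 to 69.2%), against 11.1% of the 3992 promoter summits of all genes. At the 200 strongest promoter summits of all genes the share was 11.5%. By class, the pair was found at 4 of 4 HSP70 and HSP90 peaks, at the sti-1 peak, at 6 of 7 CCT peaks (all but cct-7), at 4 of 14 J-domain peaks and at 2 of 6 prefoldin peaks. The J-domain peaks with it were those of dnj-13, dnj-19 and dnj-12 and the second peak of dnj-24, and the prefoldin peaks were those of pfd-4 and the stronger of pfd-5. A stricter form, with 3 alternating units in a row, was found at 4 of 33 chaperone peaks (12.1%), those of hsp-110, hsp-70, dnj-12 and dnj-24, against 0.676% of promoter summits of all genes. At the 200 strongest promoter summits of all genes this form was found at 5 (2.5%). No CCT peak held the form. The stricter form was looked for after the values of the pair had been seen.

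The GATA site and the pentamer gave a different comparison. TGATAA was found at 4 of 33 chaperone peaks (12.1%, 3.40 to 28.2%), those of hsp-1 and dnj-22, the stronger of dnj-24 and the second of pfd-5, against 34.3% of promoter summits. At the 200 strongest promoter summits of all genes it was found at 15%, and at the 1996 strongest at 32.5%. GAGAC was found at 17 chaperone peaks (51.5%), including a pair of matches at hsp-16.2 and at sti-1. The pentamer was at 37.5% of promoter summits, 43.2% of the 1996 strongest and 57.5% of the 200 strongest. The GC content of the same windows had a median of 42.4% at chaperone peaks and 39.7% at all optimal peaks. Whether base composition or strength plays a part in these shares was not tested.

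**Figure D5:**
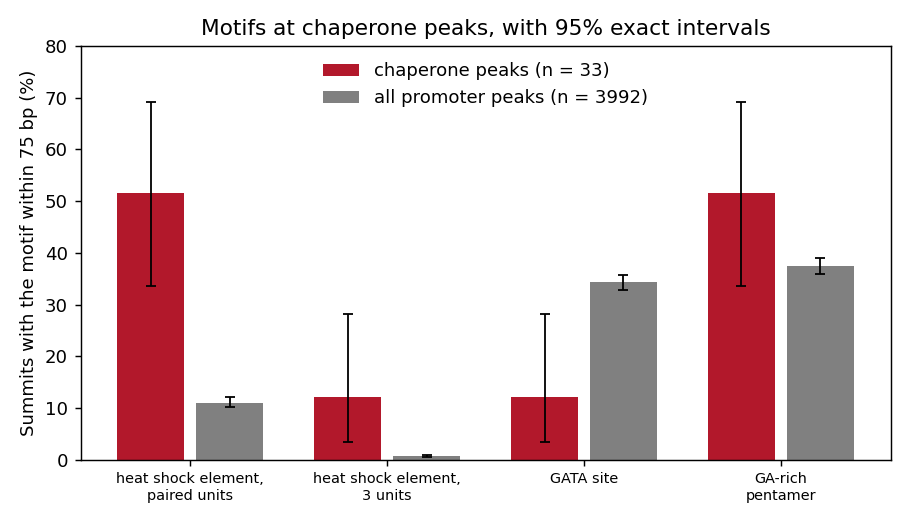
Share of summits (vertical axis, percent) with each motif within 75 bp, for the 33 peaks at chaperone genes (red) and all 3992 promoter peaks (grey), which include those 33. Bars are shares and whiskers 95% exact binomial intervals; the paired heat shock element was at 51.5% against 11.1% and the GATA site TGATAA at 12.1% against 34.3%, while the interval of GAGAC, the GA-rich pentamer, includes the 37.5% of all promoter peaks.

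Motifs were also counted in the 500 bp upstream of the first 5' end of every gene, whether it was marked or not. The paired element was then in 43 of 62 chaperone genes (69.4%) and in 48.3% of all protein-coding genes, and all 8 CCT genes had it, the unmarked cct-3 included. The form with 3 units was in 13 chaperone genes (21.0%) against 3.25% of all genes. These 13 were hsp-1, hsp-70, hsp-90, hsp-110, sti-1, dnj-12, dnj-13 and the 6 hsp-16 genes, with none among the CCT and prefoldin genes. At hsp-90 these upstream elements and the DVE-1 summit, 859 bp inside the gene, were apart. Of the 13 genes 9 were marked (69.2%), with hsp-16.2 and hsp-16.41 marked by a single shared peak, and the other 4 were the identical hsp-16 copies. Of the 49 chaperone genes without the form, 22 were marked (44.9%). Among all protein-coding genes with the form, 163 of 650 were marked (25.1%), close to the 21.7% of all genes. For the paired element, 24 of 43 chaperone genes with it (55.8%) and 7 of 19 without it (36.8%) were marked. Over all protein-coding genes, 21.05% of those with the pair and 22.24% of those without it were marked. A match is a run of letters and does not show that a factor binds there.

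The strongest summit of a marked chaperone gene lay a median of 261 bp upstream of its 5' end (40 to 918 bp), against 222 bp over all marked genes. For 25 of the 31 genes the strongest summit lay between protein-coding genes. For 23 it also lay in the window of another gene, and for 14 it was nearer to another gene's 5' end. The matching counts over all marked genes are not given here, so these counts do not set chaperone genes apart. When each summit was given only to its nearest 5' end within 2000 bp, 23 chaperone genes were marked, of which 19 were among the 31, and the background was 21.8%. The genes lost included cct-1, cct-6, cct-7, cct-8, hsp-90, hsp-110 and pfd-1, so that 3 CCT genes and 2 HSP70 and HSP90 genes were left, with cct-5 kept through a summit inside the gene. Of the 12 chaperone genes with a neighbour on the same strand within 500 bp upstream, 3 were marked (25%: dnj-9, pfd-4 and pfd-6), against 18.1% of all such genes, and of the other 50, 28 were marked (56%) against 22.6%.

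Co-chaperones and regulators outside the chosen names were marked in 6 of 13 cases (46.2%, 19.2 to 74.9%), against the 21.7% of all genes. The strongest was bag-1, a BAG-type nucleotide exchange factor of HSP70, with 3.52 in replicate 1 and 4.42 in replicate 2 (rank 87). It was followed by unc-23, a BAG2-type gene, with 2.06 and 2.73 (rank 513), and by fkb-6, an immunophilin gene of the HSP90 machinery, with 1.15 and 1.65 (rank 1839). All 3 were higher in replicate 2. The mean signal was 0.998 ± 0.208 (SD, n = 2) at hip-1, the HSP70-interacting protein, 0.759 ± 0.0161 at daf-41, the p23 co-chaperone, and 0.644 ± 0.113 at pph-5, a phosphatase that binds HSP90. The gene of the heat shock factor itself, hsf-1, was unmarked, with a best pooled rank of 22886, as were hsb-1, ddl-1, ddl-2, chn-1, unc-45 and ahsa-1. At ahsa-1 each replicate had one of its strongest regions in the window, but the pooled list had none there. The organelle chaperones that were left out by name had peaks as strong as the strongest cytosolic ones at hsp-3 (4.21 ± 0.0554, rank 71) and hsp-60 (4.17 ± 0.823, rank 79), a lower one at hsp-6 (2.45 ± 0.279, rank 552), a weak one at hsp-4 (0.576 ± 0.0920, rank 6787) and none at dnj-10.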

How the data were processed

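DVE-1 binding was measured in 2 biological replicates of 1 group. According to text deposited with the lists, each replicate and the pooled replicates have a relaxed list of peaks and background, made against a shared control, and the optimal list derives from all 3. The sources used here do not name the aligner, the peak caller, their versions or the reproducibility threshold. The control was not analysed here. The deposited signal value of each region is the authors' own and is on a different scale in each list. The lists hold no read counts, so library depth is unknown. Lists on the older assembly were not used here.

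The summit of a peak was its start plus the deposited summit offset. Genes, with 29314 5' ends of protein-coding transcripts, came from the Ensembl annotation of WBcel235 and sequences from its RefSeq genome. Identical names in the hsp-16 locus were told apart by RefSeq symbols at the same coordinates. A replicate region was matched within 100 bp of an optimal summit. No test was run: counts have 95% exact binomial intervals, which cover counting error only. The 3-unit element, the upstream motif counts, the neighbours and the hsp-16 copies were added after values were seen.

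Every marked gene is named, and both replicate values are given for the 15 strongest and the strongest of each class. Members, classes and lists were chosen with earlier results of these data known. The counting code was tested on simulated data. Alternatives covered the peak set, the window, the 5' ends, the assignment of summits and each replicate alone. Python 3.11.15, numpy 2.4.6, scipy 1.17.1, pandas 2.3.3, Biopython 1.88 and matplotlib 3.10.9 were used.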

Additional observations from a re-analysis of the deposited data

How the results depend on the processing

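The count of 31 marked chaperone genes ranged from 23 to 42 over the 8 alternatives, and all shares stayed above that of all protein-coding genes counted in the same way. Classes moved more. With every summit assigned to 1 nearest 5' end, at most 2000 bp away, there were 2 HSP70 and HSP90 genes, 3 CCT genes and 2 prefoldin genes, and 5 small HSP genes. Any region of the pooled list gave 4 of 13 small HSP genes (30.8%) and 21 of 28 J-domain genes (75%), against 38.7% of all protein-coding genes. The small HSP share was thus below that of all genes. A window of 2000 bp upstream to 500 bp downstream gave 4 of 13 small HSP genes, and 26.9% of all genes. The strongest 50% of the optimal list left 4 of 8 CCT genes, and 12.4% of all genes. With 1 replicate alone, the counts were 28 to 36 for all chaperone genes, 4 in either case for HSP70 and HSP90, 3 to 4 for small HSP, 13 to 16 for J-domain, 4 to 7 for CCT and 3 to 4 for prefoldin genes. The lowest CCT count came without replicate 2. With 50% as many regions per replicate, 16 rather than 28 chaperone genes had one in both. The median signal relative to the median optimal peak was 1.28 in the pooled list, 1.16 to 1.79 with 1 replicate alone and 0.964 with the nearest-end assignment, which is below the average optimal peak. The cause of these differences was not tested. No paired analysis was possible because there was 1 group. With the summit distance widened to 250 bp, 2 of 30 named peaks, pfd-1 and pfd-6, moved by more than their small SD.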
